A study of Mus musculus with 32 samples.

Results

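Quadriceps RNA of male mice without Col6a2 was compared between 25 and 5 weeks of age, to describe how muscle gene expression changes as these mice grow from young to adult. The comparison takes 8 of the 32 libraries of the series, chosen by their titles: 4 from 5-week-old and 4 from 25-week-old Col6a2-/- males. The mice were homozygous for a knockout-resource allele, Col6a2tm1(KOMP)Vlcg, that was made in C57BL/6N and crossed for several generations to C57BL/6J, and they were bred from heterozygous parents. Male wild-type (WT) mice of the same breeding and Col6a2-/- females, with 4 mice at each age, are used where the change in Col6a2-/- males was tested against theirs. The allele is present in every cell of the body from conception, every library is from a different mouse, and each age was sampled in other animals, so a change with age is a difference between groups of mice.

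Collagen VI is a microfibrillar collagen of the extracellular matrix that surrounds each muscle fibre and links the interstitial matrix to the basement membrane. Its main form is assembled from the α1, α2 and α3 chains, encoded by Col6a1, Col6a2 and Col6a3, and in people loss of any of these chains causes muscular dystrophies with weakness and contractures. Muscle of a mouse just past weaning is still growing: fibroblasts lay down collagen, dividing cells are present, and remnants of the developmental programme fade towards adulthood. The same developmental genes, such as embryonic myosin and the fusion proteins of myoblasts, are known to return in fibres that regenerate after damage.

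Levels are given in TPM, transcript abundance scaled for transcript length and to a fixed total per library, for each mouse, in the order of replicates 1 to 4. Changes are limma estimates of 25 minus 5 weeks on the log2(TPM + 1) scale with the standard error (SE) and the Benjamini-Hochberg adjusted p. On this scale the change of a gene with a low TPM is understated. A gene is said to have risen or fallen if its adjusted p was under 0.05. The p-values set a change against the spread between mice within groups, estimated over all 32 libraries. Folds between group means are of TPM.

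The 8 libraries differed little in make-up. The share of TPM in mitochondrial genes was 36.4% to 43.0%. The Rn7s genes, which encode the RNA of the signal recognition particle, held 22.7% to 27.9%. Inferred relative depth was 8.19 to 11.4 at 5 weeks and 6.78 to 10.1 at 25 weeks, in gigabases, and 11552 to 12610 against 10940 to 11756 genes reached 1 TPM. Depth and genes detected were thus on average lower at the older age, and their part in the changes was not tested. On the first principal component of all 32 libraries (35.1% of variance) the 5-week Col6a2-/- males lay between 19.5 (replicate 4) and 52.9 (replicate 1), and the 25-week mice between -20.6 and 2.48. WT males lay between 6.72 and 21.5 at 5 weeks and between -38.9 and -25.0 at 25 weeks.

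Col6a2 (ENSMUSG00000020241, GRCm38 chromosome 10, 76595762 to 76623630) served as a check of the genotype labels. It had 0.171, 0.047, 0 and 0 TPM in the 5-week Col6a2-/- males and 0.0158, 0.0145, 0.0332 and 0.0289 at 25 weeks. WT males had 40.8, 31.3, 51.2 and 43.9 TPM at 5 weeks and 8.55, 6.60, 7.28 and 11.2 at 25 weeks. All Col6a2-/- males were near 0 at both ages and far below every WT male, as the labels have it.

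Of 12817 genes tested, 3315 (25.9%) changed with age in Col6a2-/- males: 379 (2.96%) rose and 2936 (22.9%) fell. At least a 2-fold change was estimated for 449 of them, 54 higher and 395 lower. Matrix, imprinted growth, myoblast fusion and cell cycle genes were among those that fell, and enzymes of polyamine metabolism among those that rose. The split between directions depended on how libraries were scaled: 88.6% of calls were lower in TPM, with a median over all tested genes of -0.19, but 55.2% with median-of-ratios size factors, 59.5% after rescaling without the 100 most abundant genes and 49.7% after quantile normalization. These scalings moved the median over all genes to 0.00, -0.02 and 0.03, so small negative changes in TPM may be read against -0.19. With the size factors 1430 of the 12817 genes rose and 1761 fell. The numbers were 1244 and 1831 without the 100 most abundant genes, and 1672 and 1651 with quantile normalization. Counts of a list under these scalings may be read against them, not against the shares in TPM. The number of calls was 1921 without 5-week replicate 1, 2193 without 5-week replicate 3 and 2198 without 25-week replicate 2. In 397 genes all 4 adult libraries lay above all 4 young ones (3.10%), and in 2376 they lay below them (18.5%), 2773 genes together (21.6%). In WT males 3661 genes changed (28.6%; 2.59% higher and 26% lower) and in Col6a2-/- females 961 (7.50%; 1.73% higher and 5.77% lower). These splits moved with the scaling too: in WT males 1709 were higher and 1982 lower with median-of-ratios size factors and 1682 and 1618 with quantile normalization, and in females 821 and 1052, and 959 and 957. The female count was 2433 without 5-week replicate 4, 590 without 5-week replicate 2 and 487 without 5-week replicate 1.

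Collagen genes of the interstitial matrix fell with age. Of 14 tested fibrillar and other collagens, 13 fell, where 22.9% of all genes fell, and none rose. Their median change was -1.81 against -0.19 over all genes. Their summed level went from between 1186 and 2173 TPM at 5 weeks to between 232.9 and 371.2 at 25 weeks. Col1a1 (ENSMUSG00000001506, chromosome 11, 94936224 to 94953042), which encodes a chain of type I collagen, had 419, 150.2, 200.0 and 144 TPM at 5 weeks and 27.6, 31.1, 15.2 and 24.1 at 25 weeks. All young mice were above all adult mice, with replicate 1 highest among the young, and the change was -3.07 (SE 0.491, limma adjusted p 4.3e-05), a 9.31-fold difference in mean TPM. Col3a1 (ENSMUSG00000026043), the chain of type III collagen, had 957, 732, 822 and 593 TPM and then 186, 98.3, 113 and 108, again without overlap. Its change was -2.63 (SE 0.311, limma adjusted p 5.38e-07). Col15a1 (-2.0), Col8a1 (-1.92) and the low-abundance Col26a1 (-1.27) fell as well.

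The partner chains of the missing Col6a2 product fell with the other collagens. Col6a1 (ENSMUSG00000001119, chromosome 10, 76708792 to 76726168) had 86.6, 65.6, 80.8 and 57.0 TPM at 5 weeks and 32.6, 18.3, 23.5 and 24.0 at 25 weeks. The groups did not overlap, and the change was -1.53 (SE 0.261, limma adjusted p 9.59e-05). Col6a3, on chromosome 1 (90765923 to 90843971; ENSMUSG00000048126), went from 108, 71.8, 86.0 and 49.9 TPM to 25.3, 17.8, 18.6 and 17.5, with a change of -1.91 (SE 0.28, limma adjusted p 1.31e-05). Among the adults replicate 1 was the highest for both chains. Col6a6, which encodes an alternative chain in the α3 class, fell by 1.29 (SE 0.261), from 2.92 to 6.05 TPM down to 0.721 to 1.72. In WT males the changes of Col6a1 and Col6a3 were -2.09 and -2.40, and the test of genotype by age passed for neither (differences of 0.57, SE 0.369, and 0.50, SE 0.396, limma adjusted p of 0.9997 each).

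Basement membrane genes showed the same direction, with 13 of 15 lower, where 22.9% of all genes fell, none higher and a median change of -1.08. Col4a1, a chain of the network-forming collagen IV, had 120.3, 99.7, 112 and 90.9 TPM in young mice and 33.7, 24.7, 30.7 and 32.5 in adults, a fall of 1.77 (SE 0.194, limma adjusted p 1.68e-07). Col4a2, its neighbour read from the opposite strand, fell by 1.55, and Lamb1, a laminin chain, fell by 1.85. Sparc, a collagen-binding glycoprotein, was at 554, 377, 449.9 and 368 TPM and then at 139, 81.0, 88.9 and 77.1, a fall of 2.19 (SE 0.254).

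**Figure D1:**
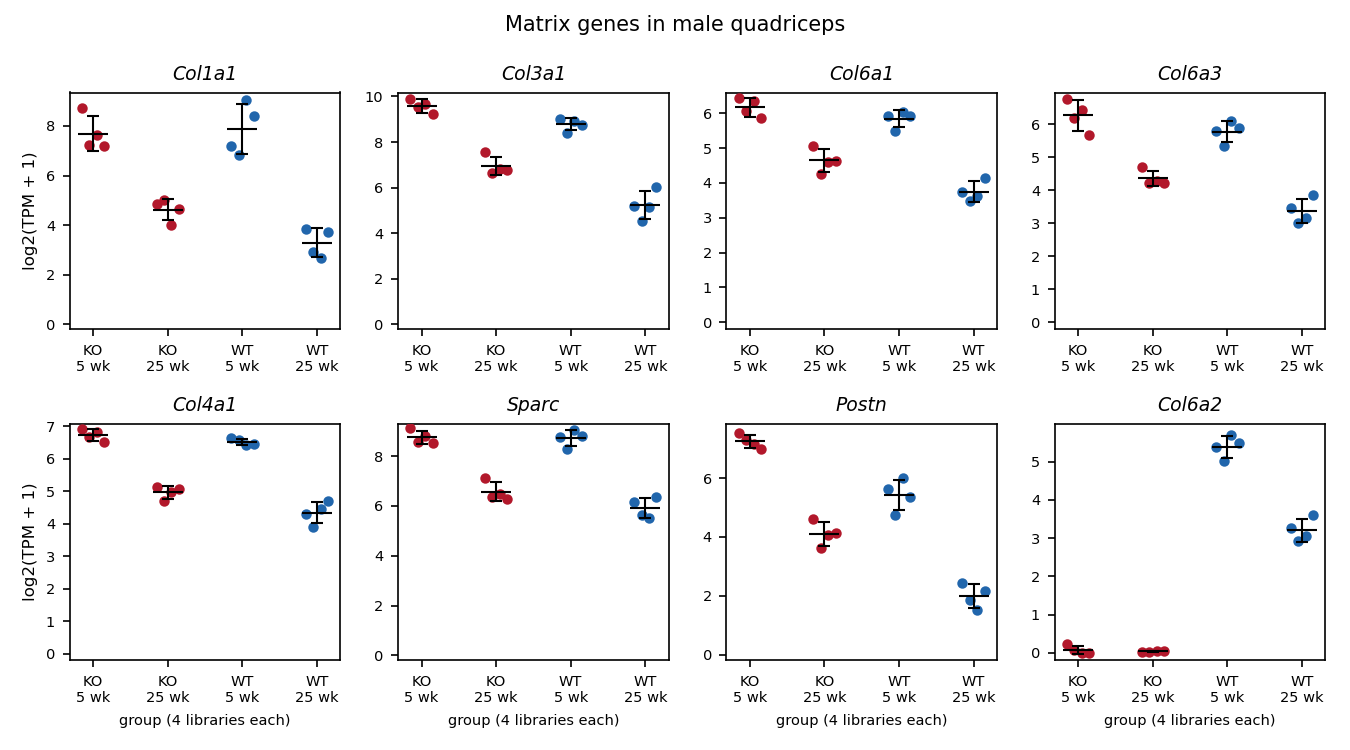
Levels of Col1a1, Col3a1, Col6a1, Col6a3, Col4a1, Sparc, Postn and Col6a2 on the log2(TPM + 1) axis in male quadriceps, Col6a2-/- (KO, red) and WT (blue) at 5 and 25 weeks. Points are the 4 libraries of a group and bars the mean ± SD. Apart from Col6a2, each gene is higher in every young than in every adult KO mouse, and Col6a2 is near 0 in all 8 KO mice.

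Enzymes that modify and cross-link collagen fell in 16 of 20 cases with a median change of -0.89, and none rose in TPM (1 rose with median-of-ratios size factors, quantile normalization or rescaling without the 100 most abundant genes). Among them were the lysyl hydroxylase Plod1 (-0.96), the prolyl hydroxylase P3h1 (-1.15), the lysyl oxidase Loxl2 (-1.39) and Adamts2 (-1.18), which trims the ends of procollagen. In the elastic fibre list 8 of 15 fell and 1 rose. Among all genes tested 22.9% fell and 2.96% rose. Elastin itself, Eln, was among those that fell, at 31.3, 21.7, 19.2 and 20.2 TPM in young mice and 7.25, 6.39, 7.15 and 5.80 in adults. The microfibril genes Mfap4 (-2.24), Mfap2 (-1.67) and Mfap5 (-1.36) fell by similar or larger amounts.

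Of 21 small proteoglycans and matricellular genes 7 fell and 14 did not pass, with a median of -0.82, where 22.9% of all genes fell. Postn, which encodes periostin, a matricellular protein of growing and scarring tissue, had 185, 155, 142 and 127 TPM at 5 weeks and 23.4, 11.2, 15.8 and 16.6 at 25 weeks. Its change of -3.14 (SE 0.423, limma adjusted p 4.08e-06) was the largest of the list. The collagen-binding proteoglycans biglycan (Bgn, -1.32), lumican (Lum, -1.43) and asporin (Aspn, -1.07) fell by lesser amounts. In bulk tissue, fewer matrix-producing cells and less matrix RNA per cell cannot be told apart.

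The transforming growth factor β (TGFβ) pathway, which the series title names, was called at a share near that of all genes (25.9%): 5 of 22 genes fell, 1 rose and 16 did not pass, with a median of -0.15, close to that of all genes. With quantile normalization 4 fell and 3 rose. The ligand Tgfb1 had 2.40, 1.64, 2.10 and 1.19 TPM and then 1.06, 1.08, 0.692 and 0.959, without overlap, and a change of -0.52 (SE 0.151, limma adjusted p 0.0121). The call was lost without 5-week replicate 1 (-0.43, limma adjusted p 0.0667) and with quantile normalization (-0.29, limma adjusted p 0.0516). Tgfb2 changed by -0.51 (SE 0.157, limma adjusted p 0.0184). Its call was lost without 5-week replicate 1 (-0.48) or 3 (-0.42), and without 25-week replicate 2 (-0.48) or 4 (-0.48). Tgfb3, the most abundant ligand gene here, had 6.01 to 8.78 TPM in young and 4.71 to 7.54 in adult mice, overlapping groups with a change of -0.28 that did not pass (limma adjusted p 0.149). The type I receptor gene Tgfbr1 fell by 0.71 (SE 0.166), from 15.1, 10.8, 12.6 and 7.69 TPM to 7.78, 5.98, 6.65 and 5.71. It kept its call under every alternative, the only one of the list's 6 calls that did.

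Genes of myoblast differentiation and fusion fell steeply in part. Of 15 tested, 7 fell and none rose in TPM, where 22.9% of all genes fell (median -0.37, against -0.19 over all genes). With median-of-ratios size factors or without the 100 most abundant genes 3 rose and 7 fell, and with quantile normalization 2 rose and 6 fell. Mymx (ENSMUSG00000079471, chromosome 17, 45600971 to 45602102) encodes myomixer, a micropeptide that opens the fusion pore between myoblasts. It had 19.3, 13.7, 16.4 and 14.7 TPM in young and 0.418, 0.104, 0.830 and 0.174 in adult Col6a2-/- males. The difference in mean TPM was 42.1-fold, but every adult value was under 1 TPM, so single libraries move this fold. The change on the log2(TPM + 1) scale was -3.64 (SE 0.229, limma adjusted p 5.18e-12). Mymk, which encodes myomaker, the other membrane protein of fusion, went from 6.42, 4.66, 6.49 and 4.21 TPM to 0.227, 0.104, 0.466 and 0.371 (-2.31, SE 0.192). Myog, the transcription factor of terminal differentiation, had 20.9, 17.8, 22.3 and 13.0 TPM and then 1.51, 0.761, 2.78 and 1.60 (-2.90, SE 0.269). Every young mouse was far above every adult for these 3 genes. Myf5, a factor of satellite cells and early myoblasts, fell by 0.64, whereas Myod1 changed by -0.37 and did not pass.

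Embryonic and perinatal contractile genes followed, with 8 of 14 lower, 1 higher and a median of -0.79 in TPM (7 lower and 2 higher with median-of-ratios size factors). Of all genes tested 22.9% were lower and 2.96% higher. Actc1 (ENSMUSG00000068614), cardiac α-actin and the actin of embryonic muscle, had 1330, 1141, 1693 and 1012 TPM in young mice and 54.5, 48.7, 70.6 and 80.6 in adults. The change was -4.33 (SE 0.363, limma adjusted p 1.38e-09), a 20.3-fold difference in mean TPM. Myl4, the embryonic alkali light chain, had 39.6, 44.3, 43.6 and 31.1 TPM and then 5.06, 4.08, 5.69 and 5.72 (-2.72, SE 0.227). Myh3, embryonic myosin heavy chain, went from 16.2, 14, 15.9 and 10.3 TPM to 2.58, 1.54, 2.57 and 2.02 (-2.25, SE 0.225). Tnnt2, cardiac troponin T, fell by 1.64. The perinatal myosin Myh8 changed by -0.23 and did not pass. Reads of Actc1 and Myl4 could not be told from those of genes annotated on the other strand, since use of strand is not given in the sources used here.

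The RefSeq promoter window of Actc1 is shown because this gene had the largest TPM loss of the list. It runs from 250 bases before to 50 after the annotated start (GRCm38.p6, chr2:114052826-114053125, minus strand). Capitals mark a CArG box, the binding motif of serum response factor, at position -47. The motif was searched on both strands and was added after this window had been read. It occurs in 535 of 32851 promoter windows of this length (1.63%).
Actc1: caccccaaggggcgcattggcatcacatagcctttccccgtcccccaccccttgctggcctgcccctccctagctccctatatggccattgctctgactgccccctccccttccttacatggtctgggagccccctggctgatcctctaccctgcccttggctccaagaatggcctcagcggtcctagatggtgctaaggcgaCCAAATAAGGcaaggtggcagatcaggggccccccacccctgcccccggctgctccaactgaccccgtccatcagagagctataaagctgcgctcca

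The adult fibre lists were called at a share near that of all genes (25.9%). Of 15 fast-fibre genes 3 fell and none rose in TPM, with a median of -0.13, and 2 fell and 1 rose with median-of-ratios size factors. Mylpf, the fast regulatory light chain, had 8701, 7271, 8707 and 7393 TPM at 5 weeks and 4340, 4139, 3949 and 3998 at 25 weeks (-0.96, SE 0.145), and Casq1, the calcium buffer of the fast sarcoplasmic reticulum, fell by 1.04 (SE 0.191). In the slow-fibre list 2 of 14 fell and 1 rose, with a median of 0.01. Sln, which encodes sarcolipin, an inhibitor of the sarcoplasmic calcium pump, had 83.0, 61.2, 70.2 and 57.9 TPM and then 4.39, 3.30, 2.84 and 2.27, a fall of 4.05 (SE 0.422, limma adjusted p 7.38e-08). Casq2 fell by 1.54 (SE 0.342), with adult replicate 1 at 18.6 TPM above the other adults at 6.73 to 9.99. The slow myosin Myh7 changed by 0.27 and did not pass.

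Acetylcholine receptor subunits and other genes known to respond to denervation fell in 13 of 17 cases, where 22.9% of all genes fell. None of the 17 rose in TPM (11 fell and 1 rose with median-of-ratios size factors). The median change was -1.46. In WT males 5 of these genes fell and 1 rose, with a median of -0.42, where 26% of all genes fell, and the test of genotype by age passed for 2 of the 17. Chrng (ENSMUSG00000026253, chromosome 1, 87204657 to 87212694), the γ subunit of the fetal receptor, had 2.37, 1.67, 2.50 and 1.96 TPM in young and 0.129, 0.0148, 0.189 and 0.0411 in adult Col6a2-/- males (-1.51, SE 0.132, limma adjusted p 3.23e-09). Chrna1, which encodes the α subunit of fetal and adult receptors, had 12.8, 9.57, 11.7 and 7.28 TPM and then 2.80, 1.61, 2.39 and 0.702 (-2.02, SE 0.255). Chrnd (-1.46) and Chrnb1 (-1.53) fell as well, and so did Ncam1, a cell adhesion molecule, by 1.59 (SE 0.237). Musk, the receptor kinase that gathers acetylcholine receptors at the synapse, changed by -0.26 and did not pass.

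The Chrng promoter is shown for the pair of E-boxes, the motif bound by the myogenic factors Myog and Myod1. It lies on GRCm38.p6 chr1:87205561-87205860, plus strand, with the start of the RefSeq transcript 250 bases in. Capitals mark both copies of the palindrome CAGCTG, which was searched on both strands, at positions -155 and -132. This motif occurs in 5355 of 32851 promoter windows (16.3%), and of the 16 genes in the table with a genotype-by-age difference, described further on, 3 hold it (Chrng, Krt8 and Pde1c). CCAAT, searched likewise, occurs in 37.4% of windows and in those of 5 of the 16 genes.
Chrng: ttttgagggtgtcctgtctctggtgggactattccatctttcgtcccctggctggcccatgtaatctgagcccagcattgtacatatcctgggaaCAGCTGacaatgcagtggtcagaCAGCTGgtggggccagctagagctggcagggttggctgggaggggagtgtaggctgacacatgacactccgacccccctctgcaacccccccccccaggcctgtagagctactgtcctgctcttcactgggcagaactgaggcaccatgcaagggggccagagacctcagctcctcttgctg

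Imprinted growth genes are a group expressed from a single parental allele and highest in the growing young animal. They fell in 12 of 17 cases, where 22.9% of all genes fell, and none of them rose. The median change was -1.76, and their summed level went from between 955.3 and 1144 TPM to between 176.2 and 231.2. H19 (ENSMUSG00000000031), a long noncoding RNA, had 716, 748, 494 and 686 TPM in young mice and 59.2, 30.5, 58.4 and 61.0 in adults (-3.67, SE 0.402, limma adjusted p 1.62e-07). Its chromosomal neighbour Igf2, a fetal growth factor, had 13.8, 12.1, 9.75 and 9.42 TPM and then 2.25, 1.49, 1.62 and 1.61 (-2.15, SE 0.31). Cdkn1c, a cyclin-dependent kinase inhibitor, fell by 2.79 (SE 0.274), the noncoding RNA Rian by 3.09, Mest by 3.04 and the growth-factor receptor adaptor Grb10 by 1.76. All 12 calls held under every alternative. Rian, Mest and H19 overlap other annotated genes, so their values may include reads of those.

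Cell cycle genes fell in 26 of 28 cases (median -0.99), where 22.9% of all genes fell. None of the 28 rose in TPM (24 fell and 1 rose with median-of-ratios size factors). Mki67, the proliferation marker Ki-67, had 6.33, 4.58, 6.07 and 2.28 TPM and then 0.419, 0.339, 0.404 and 0.238 (-2.04, SE 0.273, limma adjusted p 3.73e-06). Rrm2, a subunit of ribonucleotide reductase, fell by 1.24, Ccnb2, a mitotic cyclin, by 1.24 and Prc1, a protein of the midzone spindle, by 1.65. Young replicate 4 was the lowest of its group for each of these 4 genes, and still above all adult mice.

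**Figure D2:**
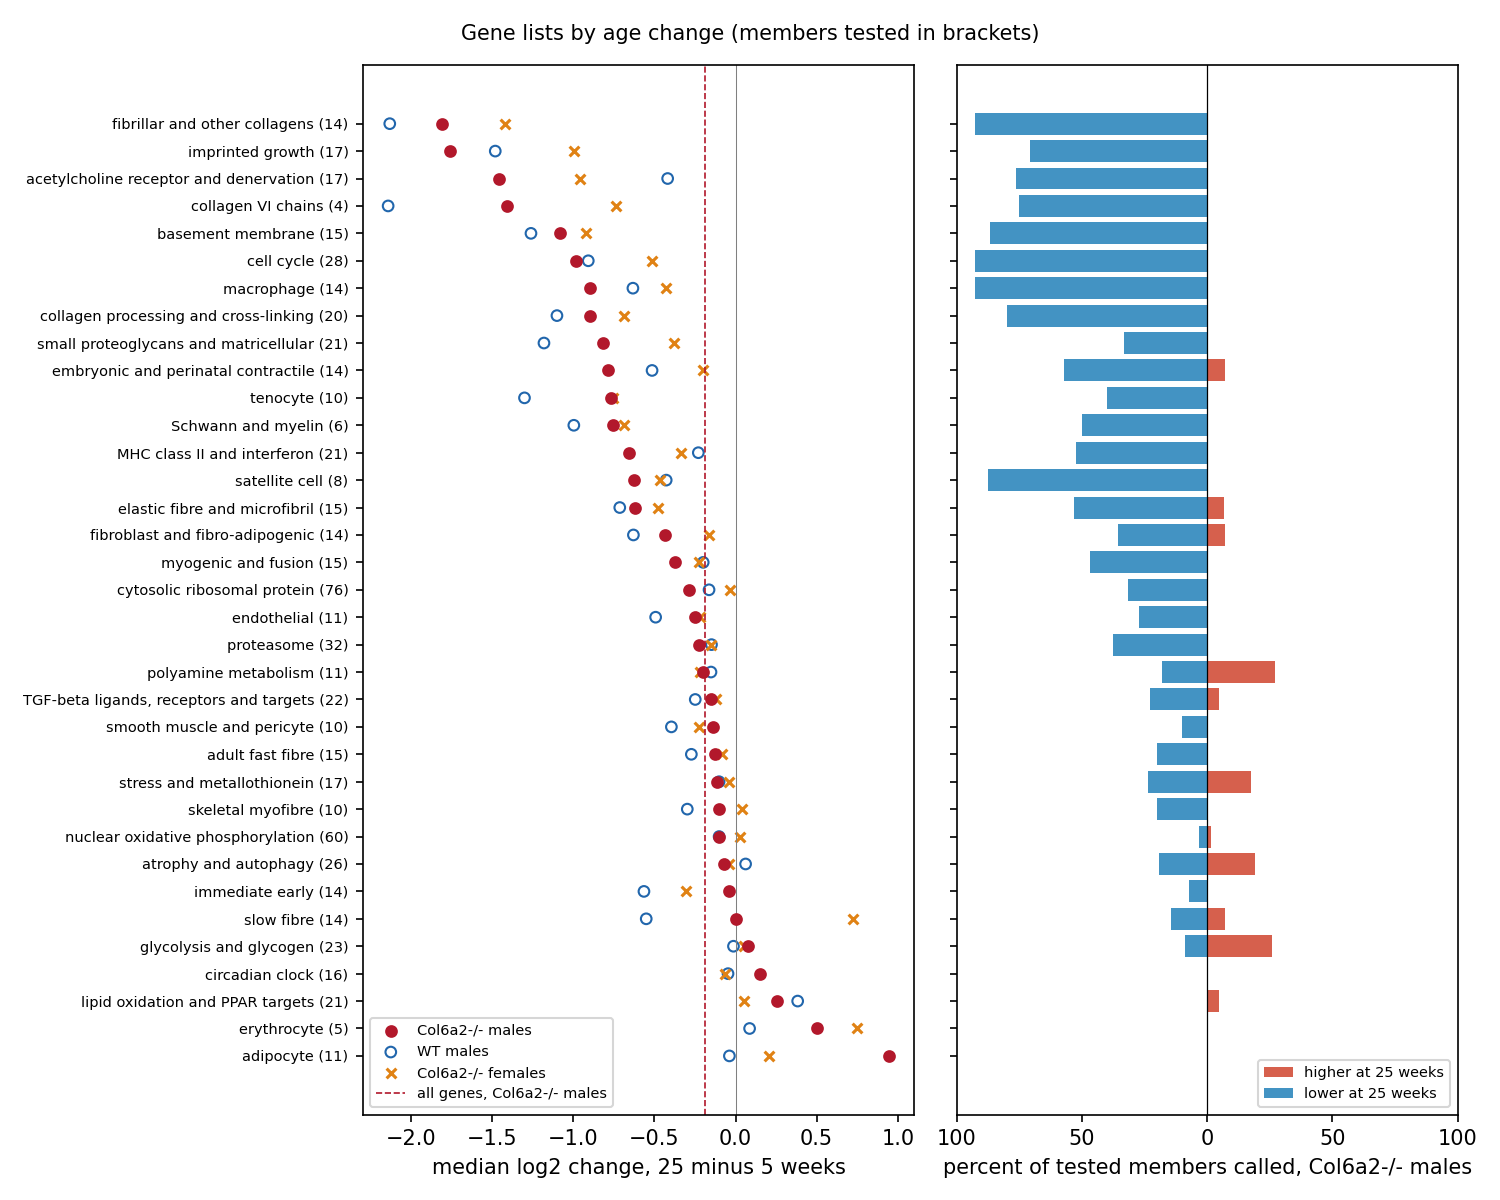
Gene lists in the change from 5 to 25 weeks. On the left, the median log2 change of each list's tested genes in KO males, WT males and KO females. A dashed line marks the median of all genes tested in KO males (-0.19). On the right, the percent of each list's genes that rose or fell in KO males. Collagens (-1.81), imprinted genes (-1.76) and the acetylcholine receptor and denervation list (-1.46) have the lowest medians in KO males.

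Among genes of energy metabolism, glycolysis and glycogen genes rose in 6 of 23 cases, where 2.96% of all genes rose, and fell in 2. Pfkm, muscle phosphofructokinase, had 336, 330.2, 391 and 312 TPM in young and 579, 455, 554 and 613 in adult mice, without overlap (0.68, SE 0.116, limma adjusted p 8.84e-05). Hk2, the insulin-regulated hexokinase, rose by 0.67 and Pfkfb3, a kinase and phosphatase that sets the level of the activator of phosphofructokinase, by 1.31, while Hk1 fell by 0.56 and Pgk1 by 0.60. Of 60 nuclear genes for oxidative phosphorylation 1 rose and 2 fell, and with median-of-ratios size factors 3 rose and none fell. With these size factors 1430 of all 12817 genes rose and 1761 fell. Among lipid oxidation genes 1 of 21 rose (Acot2, whose call was lost in 6 of 20 alternatives), and 3 rose with median-of-ratios size factors. Cytosolic ribosomal protein genes fell in 24 of 76 cases, against 22.9% of all genes, with a median of -0.29, which is near the median of all genes, and with median-of-ratios size factors 5 fell and 1 rose.

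Proteasome genes fell in 12 of 32 cases in TPM, where 22.9% of all genes fell, but with median-of-ratios size factors 3 rose and 2 fell. In the atrophy and autophagy list 5 of 26 rose and 5 fell in TPM, where 2.96% of all genes rose, against 9 and 2 with those size factors. Over all 12817 genes those size factors gave 1430 rises and 1761 falls. Fbxo32 (ENSMUSG00000022358), which encodes atrogin-1, a ubiquitin ligase induced in muscle wasting, had 26.9, 16.7, 21.9 and 16.9 TPM in young and 27.3, 47.3, 38.2 and 41.3 in adult mice. Adult replicate 1 was only just above the highest young mouse, and the change was 0.87 (SE 0.203, limma adjusted p 0.00234). Trim63, which encodes the other well-known ligase of atrophy, MuRF1, changed by -0.10 and did not pass. Gabarapl1, an autophagosome protein, rose by 0.51, while Map1lc3a fell by 0.65 and the lysosomal protease Ctsl by 0.71.

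Some of the largest rises with age lay in polyamine metabolism, where 3 of 11 genes rose and 2 fell. Among all genes tested 2.96% rose and 22.9% fell. The 3 that rose were Amd1, Amd2 and Smox. Amd1 and Amd2 share long stretches of sequence, so their rises are not separate observations. The list's median of -0.20 was near that of all genes (-0.19). Amd1 (ENSMUSG00000075232, chromosome 10, 40287458 to 40302186) encodes S-adenosylmethionine decarboxylase, which supplies the aminopropyl group for spermidine and spermine. It had 32.5, 33.3, 35.0 and 32.1 TPM in young and 182, 148, 120.4 and 148 in adult Col6a2-/- males. The young mice were close together, the adults all several times higher, and the change was 2.12 (SE 0.162, limma adjusted p 2.79e-10), a 4.50-fold difference in mean TPM. Amd2 (ENSMUSG00000063953) had 8.10, 8.60, 8.93 and 7.79 TPM and then 46.6, 37.7, 31.6 and 38.1 (2.07, SE 0.158). Smox, spermine oxidase, had 7.35, 10.2, 12.8 and 11.4 TPM and then 31.8, 27.3, 29.3 and 55.5 (1.66, SE 0.254, limma adjusted p 2.26e-05). Sat1, which acetylates spermidine and spermine for export, fell by 0.92 and Srm, spermidine synthase, by 0.35. The call of Srm was lost in 13 of 19 alternatives, among them median-of-ratios size factors (-0.17, limma adjusted p 0.278) and quantile normalization (-0.13, limma adjusted p 0.406). Odc1, ornithine decarboxylase, changed by 0.10 and did not pass.

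Amd2 is a near-identical copy of Amd1, and reads may have been split between them. Of the 100-base windows of Amd2 transcripts 72.9% also occur in Amd1, and the same holds for 89.0% of those of Amd-ps3 and 59.7% of those of Amd-ps4, so the values of the copies are uncertain. Their promoter windows are printed to show where the copies part (GRCm38.p6, chr10:40302139-40302438 for Amd1 and chr10:35711842-35712141 for Amd2, both minus strand). Capitals mark the longest run that both windows share, 48 bases from position 2 of Amd1 and position 0 of Amd2 relative to the start.
Amd1: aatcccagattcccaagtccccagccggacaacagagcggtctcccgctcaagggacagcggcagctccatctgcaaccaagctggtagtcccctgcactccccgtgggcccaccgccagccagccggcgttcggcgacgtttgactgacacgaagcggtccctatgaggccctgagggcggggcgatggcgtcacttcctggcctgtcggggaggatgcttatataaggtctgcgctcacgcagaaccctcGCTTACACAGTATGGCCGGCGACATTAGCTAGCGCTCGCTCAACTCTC
Amd2: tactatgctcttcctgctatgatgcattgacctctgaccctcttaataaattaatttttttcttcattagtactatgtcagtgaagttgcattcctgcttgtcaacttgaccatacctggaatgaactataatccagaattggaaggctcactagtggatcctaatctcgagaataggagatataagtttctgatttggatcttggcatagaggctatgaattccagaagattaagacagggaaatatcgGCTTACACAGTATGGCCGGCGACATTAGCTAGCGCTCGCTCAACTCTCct

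Other large rises outside the lists were those of Inmt, an indolethylamine methyltransferase (0.791, 0.505, 0.721 and 3.46 TPM, then 19.6, 10.9, 11.1 and 6.45; 2.51, SE 0.51), Amy1, salivary amylase (1.86, SE 0.2), and C7, a complement component (1.70, SE 0.259). For Inmt, young replicate 4 was above its group and adult replicate 4 was the lowest adult. Nqo1, a quinone reductase, went from 3.60, 3.18, 3.55 and 3.84 TPM to 9.68, 8.04, 8.52 and 11.2 (1.18, SE 0.126). By fold of mean TPM, Aldh3a1, Krt18 and Mymx fell by 153-fold, 46.9-fold and 42.1-fold. All adult values of these genes were under 1 TPM, so the folds move with single libraries.

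Snhg3, the host of a small nucleolar RNA, and Snora73a, which lies within it, moved in opposite directions. Snhg3 was at 168, 127, 123 and 136 TPM in young and 5.23, 5.61, 5.03 and 4.12 in adult Col6a2-/- males. Snora73a had 55.8, 42.6, 39.6 and 45.3 TPM and then 373, 352, 334 and 363. The pair shares its reads, so how abundance was divided between them is uncertain. In WT males Snhg3 had 91.4 to 130.3 TPM at 5 weeks and 77.1 to 125 at 25 weeks, and the genotype difference did not pass (limma adjusted p 0.0925). In Col6a2-/- females it had 119.2 to 167.7 TPM at 5 weeks and 99.7 to 143.7 at 25 weeks. Among the 8 WT females, 5 had the pattern of the adult Col6a2-/- males, with Snora73a above Snhg3, 3 of them at 5 weeks and 2 at 25 weeks, while the other 3 had Snhg3 at 100.7 to 124.5 TPM. The split between the pair thus varied within groups of 1 age and genotype, and its change in Col6a2-/- males is given without a reading as a change of either gene.

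Markers of other cell types were read beside these changes, and their part in them was not tested. Macrophage markers fell in 13 of 14 cases, none rose, and their summed level was 277.9 to 401.0 TPM in young and 127.7 to 211.6 in adult mice. C1qb, a complement gene of tissue macrophages, had 36.4, 31.4, 29.4 and 28.6 TPM and then 17.6, 9.98, 15.0 and 11.1, and Adgre1, which encodes F4/80, fell by 1.33 (SE 0.277). Of 14 fibroblast markers 5 fell and 1 rose, and their summed level overlapped between ages (601.1 to 815.7 and 571.1 to 881.2 TPM). Tenocyte markers fell in 4 of 10 cases (summed 111.2 to 274.4 TPM, then 79.6 to 104.4), and Schwann cell markers in 3 of 6 (38.9 to 95.7, then 11.2 to 44.6 TPM). Satellite cell markers fell in 7 of 8 cases (51.9 to 66.3 TPM, then 30.0 to 38.9). For comparison, 22.9% of all genes fell. Of 11 endothelial markers 3 fell, and of 10 smooth muscle and pericyte markers 1 fell in TPM, but with median-of-ratios size factors 2 endothelial markers rose and 2 fell, and 2 smooth muscle and pericyte markers rose and none fell.

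Adipocyte markers, none of whose 11 genes passed in TPM (1 rose with median-of-ratios size factors), had a median change of 0.95 with summed levels that overlapped between ages (510.9 to 1109 and 819.7 to 1428 TPM). Erythrocyte markers gave no call among 5 genes. Ighm, the immunoglobulin μ heavy chain and the single lymphocyte marker that was tested, rose from 17.7, 21.2, 22.9 and 18.8 TPM to 55.5, 43.5, 57.9 and 94.4 (1.54, SE 0.324, limma adjusted p 0.00096). Myofibre markers, which identify the tissue, summed to 28940 to 38640 TPM in young and 24470 to 27860 in adult mice, the highest of any marker list.

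Whether the change with age differed between Col6a2-/- and WT males was tested for each gene. A difference passed for 23 genes (0.179%), 21 of them lower (0.164%) and 2 higher (0.0156%) in Col6a2-/- males. The comparisons share the design but no libraries, and 2271 genes were called in both genotypes, which is 68.5% of the calls in Col6a2-/- and 62.0% of those in WT males. Of these, 2270 moved the same way. In TPM 88.6% of the calls in Col6a2-/- and 90.9% of those in WT males were lower, a split that moved with the scaling. The overlap was not computed under other scalings. Of the 23 genes 18 fell in Col6a2-/- males, and 17 of the 18 were not called in WT males. All 18 were higher in each of the 4 young Col6a2-/- males than in any young WT male (9.32% of all genes tested were so, and 703 of the 2936 that fell, or 23.9%). The 5-week genotype difference is part of the test that chose these genes, so this is a description. All 18 also fell in Col6a2-/- females, where 5.77% of all genes fell. Of the 3315 genes called in Col6a2-/- males in either direction, 826 (24.9%) were called in those females.

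**Figure D3:**
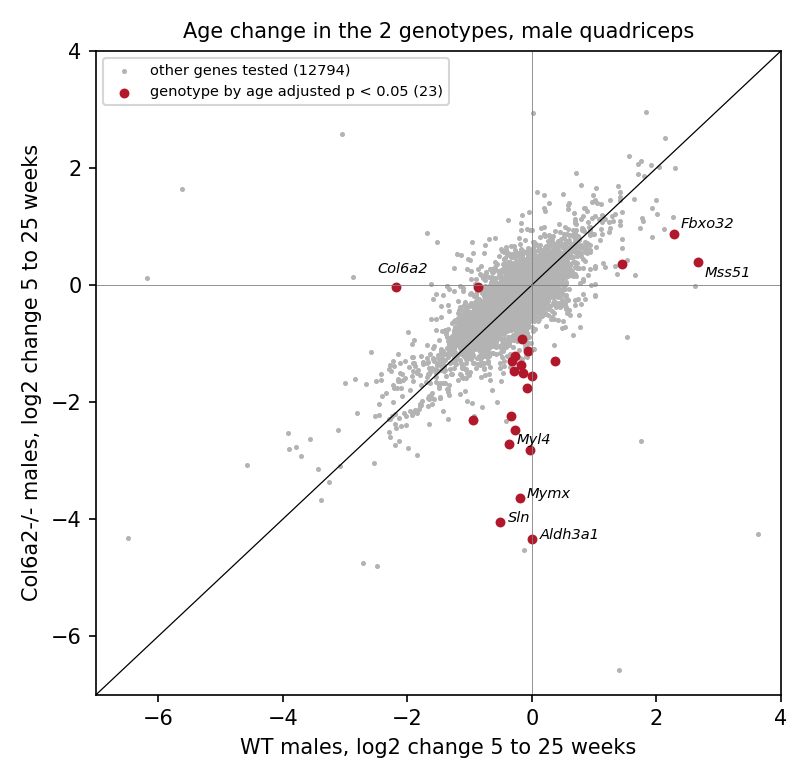
Change from 5 to 25 weeks in KO males (vertical, log2) against WT males (horizontal, log2), for 12817 genes, with the 23 genes whose change differed by genotype in red. Most red points lie near 0 on the horizontal axis and well below 0 on the vertical axis.

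Of the 23 genes, 2 were in the myogenic and fusion list, 2 in the embryonic and perinatal contractile list, 2 in the acetylcholine receptor and denervation list and 1 in the slow-fibre list. Mymx had at most 0.363 TPM in any WT male, against 13.7 to 19.3 TPM in young Col6a2-/- males, and the difference in change was -3.44 (SE 0.323, limma adjusted p 7.14e-08). Myl4 had 2.34 to 2.78 TPM in young and 1.47 to 1.88 in adult WT males (difference -2.35, SE 0.321, limma adjusted p 0.00012). For Sln the WT range was 0.471 to 1.47 TPM at 5 weeks, against 57.9 to 83.0 TPM in Col6a2-/- males (difference -3.54, SE 0.596, limma adjusted p 0.00232). Myh3 (-1.91) and Chrng (-1.37) passed as well. At 25 weeks 7 of the 18 were still higher in all adult Col6a2-/- than in all adult WT males, namely Mymx, Chrng, Myl4, Plekhh1, Myh3, Sln and Mymk, as were 13.9% of all genes tested. The other 11 overlapped. Actc1 had 2327, 1592, 2879 and 1738 TPM in young WT males, a range that overlapped that of young Col6a2-/- males. Its difference of 2.17 (SE 0.513) did not pass (limma adjusted p 0.105), but passed with median-of-ratios size factors (limma adjusted p 0.037), quantile normalization (0.0432), only the 16 male libraries fitted (0.0248) and without 25-week WT replicate 4 (0.0144).

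Aldh3a1 (ENSMUSG00000019102, chromosome 11, 61207537 to 61218421), an aldehyde dehydrogenase best known from cornea and stomach, had the difference of the largest size among the 23, with 23.2, 15.9, 33.4 and 19.3 TPM in young Col6a2-/- males and 0.302, 0.133, 0.132 and 0.033 in adults. No WT male had more than 0.233 TPM, and the difference in change was -4.34 (SE 0.405, limma adjusted p 7.14e-08). Krt18, a keratin of simple epithelia, had 9.01, 7.82, 7.19 and 5.13 TPM and then 0.260, 0.203, 0 and 0.159 (difference -2.79, SE 0.399). Its partner Krt8 had 2.26, 2.58, 2.26 and 1.28 TPM and then at most 0.0957, and was listed at 0 in all 8 WT males (difference -1.55, SE 0.222). Col19a1, a minor collagen, had 8.68, 5.31, 8.70 and 4.94 TPM and then 0.265 to 0.567 (difference -2.21, SE 0.387). Mfsd7a (-1.67) and Plekhh1 (-1.07) also passed.

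**Figure D4:**
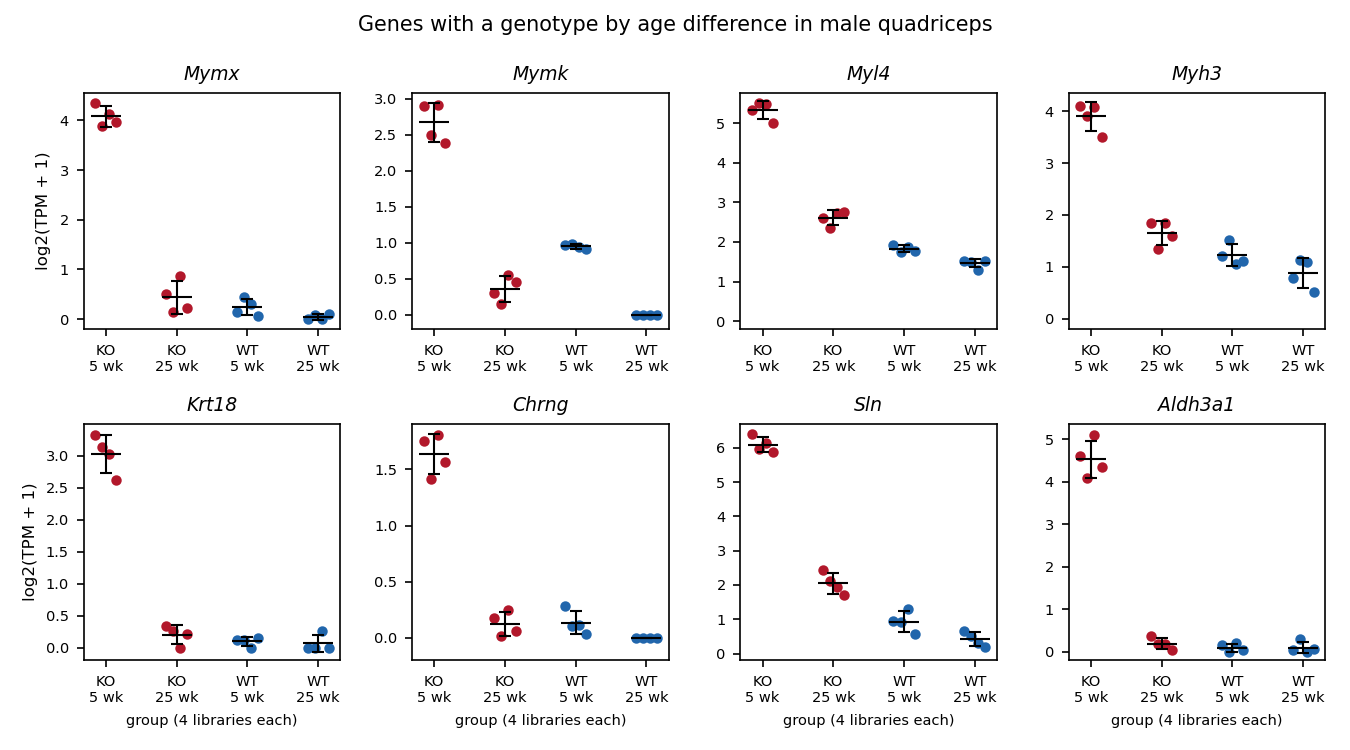
Levels of Mymx, Mymk, Myl4, Myh3, Krt18, Chrng, Sln and Aldh3a1 on the log2(TPM + 1) axis in KO (red) and WT (blue) males at 5 and 25 weeks; points are libraries, bars the mean ± SD of 4. The young KO mice stand above all other groups, and WT males are low at both ages.

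Of the 23 differences, 12 held when any 1 library was left out: Col6a2 and the genes Aldh3a1, Mymx, Chrng, Myl4, Krt18, Krt8, Plekhh1, Mfsd7a, Myh3, Sln and Col19a1. Chrng, Sln and Col19a1 did not pass with a pseudocount of 0.1 TPM (limma adjusted p of 0.0542, 0.145 and 0.0678). The other 11 (Eda2r, Tmem37, Mymk, Igfbp2, Fbxo32, Pde1c, Chrnd, Gm13703, Mss51, Ackr3 and Gm34006) lost their call without 1 or more libraries. Fbxo32 was among the 5 genes that did not fall in Col6a2-/- males. In WT males it had 6.86, 8.10, 4.55 and 10.4 TPM at 5 weeks and 36.9, 36.1, 42.0 and 41.8 at 25 weeks, a rise of 2.29, so that every young WT male was below every young Col6a2-/- male, while the adults overlapped. Its difference of -1.42 (SE 0.287, limma adjusted p 0.0219) was lost in 7 of the 16 fits without a library: 5-week Col6a2-/- replicates 1 (-1.28) and 3 (-1.38), 25-week Col6a2-/- replicate 1 (-1.26), 5-week WT replicates 1 (-1.40) and 3 (-1.23), and 25-week WT replicates 1 (-1.44) and 3 (-1.38). The higher difference of Col6a2 itself (2.15, SE 0.19) came with a fall in WT males and levels near 0 in Col6a2-/- males.

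The change with age in Col6a2-/- males was also tested against that in Col6a2-/- females. It differed for 9 genes (0.0702%), all of them higher in males: Amd1, Amd2, Amd-ps3, Amd-ps4, Amd-ps1, Smox, Actr3b, Tmem132b and 1700001O22Rik. Without 5-week female replicate 2 the count was 29, with 10 higher and 19 lower in males, and in the other 15 fits without a library it was 7 to 10, with at most 1 lower. Of the 3315 genes called in males 826 (24.9%) were called in females, which is 86.0% of the female calls, and all 826 moved the same way. This overlap too was computed in TPM only.

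Amd1 had 19.3, 26.9, 20.0 and 24.9 TPM in young and 28.1, 36.2, 36.0 and 44.8 in adult Col6a2-/- females, so adult males at 120.4 to 182 TPM were well above every female. Its change of 0.64 in females differed from the 2.12 in males by 1.48 (SE 0.23, limma adjusted p 0.00157). Smox had 7.34 to 12.8 TPM in young and 6.59 to 10.6 in adult females, and the difference of 1.77 (SE 0.359, limma adjusted p 0.0453) was lost in 10 of 16 fits without a library: without 5-week male replicates 1 (1.62), 2 (1.76) and 4 (1.81), 25-week male replicates 1 (1.80) and 4 (1.54), 5-week female replicates 3 (1.82) and 4 (1.61), and 25-week female replicates 1 (1.67), 2 (1.72) and 4 (1.80). It was also lost in 6 other alternatives, with limma adjusted p from 0.0533 to 0.106. Actr3b, an actin-related protein, had 0.637, 0.611, 0.337 and 0.506 TPM in young and 5.00, 4.34, 4.83 and 6.17 in adult males, against 1.03 TPM or less in adult females (difference 1.34, SE 0.161, limma adjusted p 4.31e-05, and 0.0814 with a pseudocount of 0.1 TPM). Tmem132b, a membrane protein, was at or below 0.0195 TPM in young males and at 0.967 to 1.44 in adults (difference 0.76, SE 0.115, limma adjusted p 0.00157), and this call was lost with that pseudocount (limma adjusted p 0.675) and with only the 16 Col6a2-/- libraries fitted (limma adjusted p 0.0963). WT males rose likewise in all 4 of these genes, by 1.76 for Amd1, 1.04 for Smox, 2.30 for Actr3b and 1.09 for Tmem132b, and the test of genotype by age passed for none of them (limma adjusted p of 0.9997 for each).

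**Figure D5:**
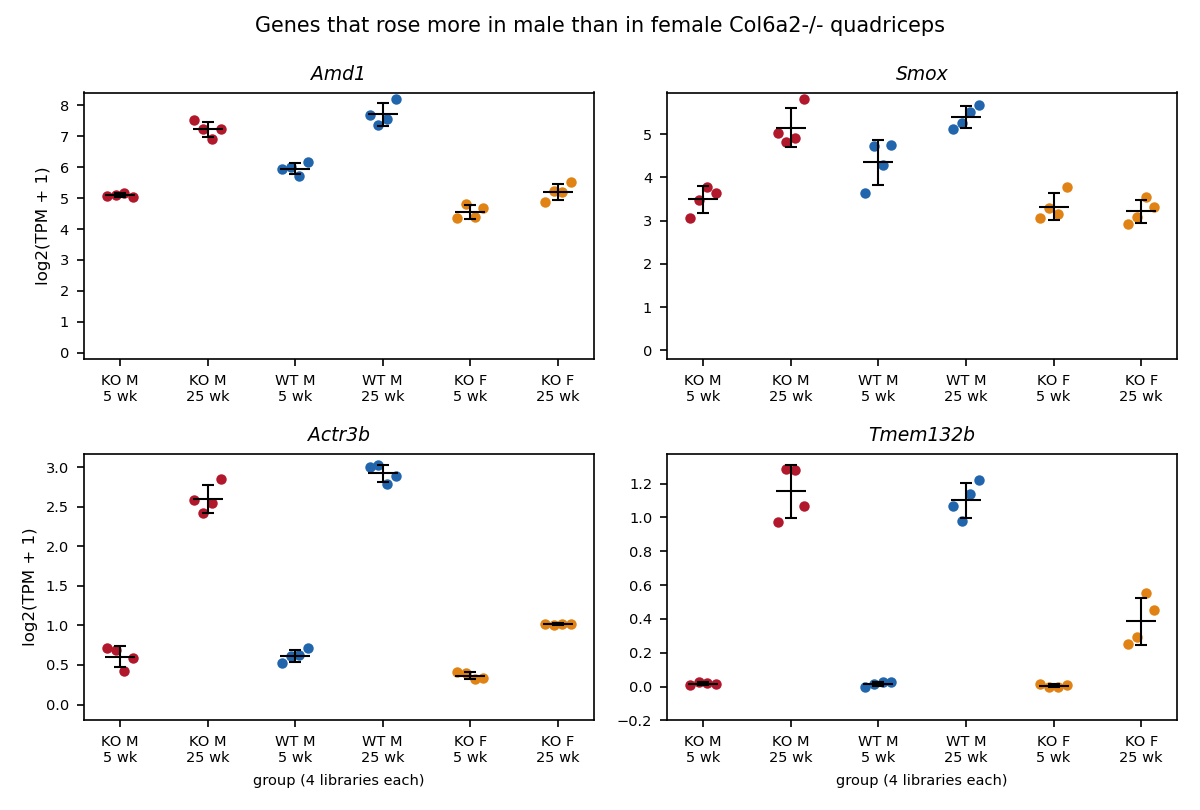
Levels of Amd1, Smox, Actr3b and Tmem132b on the log2(TPM + 1) axis in KO males (red), WT males (blue) and KO females (orange) at 5 and 25 weeks; points are libraries, bars the mean ± SD of 4. Adult males of both genotypes stand above adult KO females, whose Smox levels overlap those of young KO females.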

How the data were processed

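RNA of snap-frozen, cryosectioned quadriceps was sequenced as paired-end reads from TruSeq libraries, per the labels' protocols. The submitters' processing notes name Trimmomatic, FastQC, MultiQC, HISAT2, SAMtools, StringTie and the mouse build GRCm38 (mm10), without versions; use of strand is not given in the sources used here. The authors deposited, for each library, TPM, FPKM (both scaled for length and library) and coverage (mean read depth, a signal not scaled for depth) per gene, per the file headers. No counts were used, so no count model was fitted.

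TPM was summed per gene ID. The 12817 genes that reached 1 TPM in 4 or more of 32 libraries were analysed as log2(TPM + 1). One limma 3.58.1 model in R 4.3.3 held a mean for each of 8 groups (eBayes with a trend, two-sided, Benjamini-Hochberg over all genes), so all contrasts shared 1 spread with 24 residual degrees of freedom. The code was tested on simulated data. FPKM and coverage served to infer relative depth as the mode of their ratio, which exceeds the usual yield of the MiSeq named in the labels; this mismatch was not resolved. TPM keeps no read number, so no counting interval is given. Data handling and plots used Python 3.11.15, pandas 2.3.3, numpy 2.4.6, data.table (version 1.17.8) and matplotlib 3.10.9.

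The comparison and the 36 gene lists (677 genes, of which 628 were tested and 21 were in more than 1 list) were chosen with earlier results of these data known, so list counts are descriptions. Genes were named by rule: the 10 largest called changes in each direction without overlap and with at least 5 TPM, the 4 called genes of each list with the smallest p, or the 2 most abundant where none passed, the 5 genes with the smallest p in each direction of both interaction tests, and collagen VI and TGFβ genes. Members beyond this rule were named after their values were seen. The values of 1 gene that the rule names are not reported here, and it was left out of the search for libraries that stand apart. No 2 libraries held identical values. Promoters came from RefSeq windows on GRCm38.p6, which held 16 of the 23 genes with a genotype-by-age difference. Alternatives were the pseudocount, the filter, 4 other scalings, FPKM, smaller fits, a robust fit, a replicate block and each library left out.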

Additional observations from a re-analysis of the deposited data

Results flagged for a closer look

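The change with age differed by genotype in males for 23 genes in limma's interaction test. The difference (Col6a2-/- minus WT change, log2 scale) was -4.34 for Aldh3a1, -3.54 for Sln, -3.44 for Mymx, -2.79 for Krt18, -2.35 for Myl4, -2.21 for Col19a1, -1.91 for Myh3, -1.67 for Mfsd7a, -1.55 for Krt8, -1.37 for Chrng and -1.07 for Plekhh1. It was 2.15 for the targeted gene Col6a2. Each of the 11 remaining genes lost its call in some fits without 1 of the 16 libraries. These were Eda2r (-1.66, lost in 5 fits), Tmem37 (-1.09, in 8), Mymk (-1.36, in 7), Igfbp2 (-0.99, in 9), Fbxo32 (-1.42, in 7), Pde1c (-0.76, in 7), Chrnd (-1.18, in 8), Gm13703 (-0.94, in 13), Mss51 (-2.28, in 15), Ackr3 (0.84, in 13) and Gm34006 (-1.18, in 15). Fbxo32 and Tmem37 rose in WT males, by 2.29 and 1.45, and so did Mss51, by 2.67, whereas Eda2r fell in Col6a2-/- males by 1.29.

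Between the sexes of Col6a2-/- mice the change differed for 9 genes (male minus female change, log2 scale; 29 genes, 19 of them lower, without 5-week female replicate 2): Smox (1.77), Amd1 (1.48), Amd2 (1.46), Amd-ps3 (1.35), Actr3b (1.34), Amd-ps4 (1.21), 1700001O22Rik (0.99), Amd-ps1 (0.96) and Tmem132b (0.76). Amd1, Amd2, Amd-ps3 and Amd-ps4 kept the difference under every alternative. These 4 share long stretches of sequence, so they are not separate observations. Of the 100-base windows of Amd-ps1, 2.79% occur without a mismatch in Amd1. Whether the values of Amd-ps1 are separate from those of Amd1 was not tested.

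Among named genes, a single Col6a2-/- male lay apart from the other 3 of its group in 13 of 264 groups tested by Dixon's ratio (4.92%), where chance gives about 1 in 20. At 5 weeks these were replicate 1 for Loxl2 (23.0 TPM, others 13.62 to 14.04), Aldh1a1 (27.9, others 35.1 to 35.6) and Rgs5 (110.4, others 120.2 to 121.4), replicate 3 for Acta1 (9450, others 6999 to 7134) and replicate 4 for Ccnb2 (0.824, others 2.11 to 2.17) and Inmt (3.46, others 0.505 to 0.791). At 25 weeks they were replicate 1 for Col6a3 (25.3 TPM, others 17.5 to 18.6), Mfap4 (4.79, others 2.42 to 2.71) and Cdh5 (19.2, others 16.3 to 16.6). Replicate 2 stood apart for H19 (30.5, others 58.4 to 61.0), Esam (6.92, others 11.4 to 12.6) and Atp5g3 (221.1, others 251.0 to 257.2), and replicate 4 for Prc1 (0.0887, others 0.247 to 0.265).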

How the results depend on the processing

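The number of genes that changed in Col6a2-/- males (3315) was 1813 with a filter at 5 TPM, where fewer genes were tested, and ran from 1921 to 4288 with 1 library left out (1921 without 5-week replicate 1, 4288 without 5-week replicate 4). It was 2371 with only the 8 Col6a2-/- male libraries fitted. In WT males (3661) it was 1917 at 5 TPM, 2140 after rescaling without mitochondrial and Rn7s genes, and 2480 to 3744 with 1 library left out. In Col6a2-/- females (961) it was 536 at 5 TPM, 1873 with median-of-ratios size factors, 1764 without the 100 most abundant genes, 1916 with quantile normalization and 370 with only the 16 Col6a2-/- libraries fitted. It was 487 to 2433 with 1 library left out, the latter without 5-week female replicate 4.

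The 23 genotype-by-age differences became 14 with a pseudocount of 0.1 TPM, 59 without a filter, 13 at 5 TPM, 45 with median-of-ratios size factors, 62 with quantile normalization, 36 with only the 16 male libraries and 12 to 34 with 1 library left out. The lowest was without 5-week Col6a2-/- replicate 3 and the highest without 25-week WT replicate 4. The 9 sex-by-age differences became 4 with that pseudocount and 7 to 29 with 1 library left out (29 without 5-week female replicate 2, of which 10 were higher and 19 lower in males). For the scalings and left-out libraries the cause was not tested.

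Of 462 calls examined in Col6a2-/- males, 367 held under every alternative. Changes that reversed were all small. With 1 library left out, Tef ran from -0.0764 (without 25-week replicate 1) to 0.305, Lyve1 from -0.0202 (without 5-week replicate 3) to 0.2045, Col6a2 from -0.0650 to 0.0108 (without 5-week replicate 1) and Ackr3 from -0.127 to 0.0732 (without 25-week replicate 2; 0.0659 without 5-week replicate 1). Col6a2 was 0.0546 with quantile normalization. Ackr3 was 0.00506 rescaled without mitochondrial and Rn7s genes, 0.178 with median-of-ratios, 0.152 without the 100 most abundant genes, 0.189 with quantile normalization and 0.01745 in FPKM.

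The labels do not tie a replicate number to a litter, batch or day, and not every same-numbered pair correlated over 0.1, so the numbers were not taken as pairs. The correlation of deviations between same-numbered Col6a2-/- males was 0.103, 0.263, 0.339 and 0.0502, and 3 of 4 numbers had their own number as best partner, a hint from the data. With a replicate block 3392 genes changed in Col6a2-/- males, 3226 of them among the 3315, and 19 of the 23 genotype-by-age differences and all 9 by sex were called. Low-abundance genes near 1 TPM are the least certain, and no read numbers were used to bound them.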

Other observations

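Antiviral and interferon genes with antigen presentation, a list not described above, fell in 11 of 21 cases in Col6a2-/- males and in 3 of 21 in WT males, where 22.9% and 26% of all genes fell; the median changes were -0.65 and -0.23, and the test of genotype by age passed for none of the 21. Bst2, which tethers budding virus, had 20.7, 13.4, 16.7 and 13.0 TPM at 5 weeks and 5.53, 3.79, 4.77 and 5.25 at 25 weeks (-1.53, SE 0.23). Irf7, a regulator of interferon genes, had 5.07, 2.76, 3.83 and 5.99 TPM and then 2.31, 1.12, 1.40 and 1.44 (-1.06, SE 0.224), without overlap. Isg15 (-0.98) and Oas1a (-0.88) fell as well.

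Of 17 stress genes 3 rose and 4 fell, where 2.96% of all genes rose and 22.9% fell. Cdkn1a, which encodes the p53 target p21, had 16, 11.2, 16.9 and 10.1 TPM in young and 2.36, 1.96, 4.22 and 2.16 in adult Col6a2-/- males (-1.99, SE 0.301). Young WT males had 1.75, 1.59, 1.51 and 4.78 TPM, and the difference by genotype of -1.44 (SE 0.425) did not pass (limma adjusted p 0.437). Aldh1a1, a retinaldehyde dehydrogenase, rose by 0.79 (SE 0.157). None of 16 circadian clock genes passed in TPM (1 rose with median-of-ratios size factors), and 1 of 14 immediate early genes did, Myc, which lost its call in 8 of 19 alternatives. Cyfip2, a regulator of actin nucleation, rose by 0.66 in Col6a2-/- males and by 1.89 in females. The difference did not pass (limma adjusted p 0.0691), but passed in 2 of 26 alternatives (lowest limma adjusted p 0.00109).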
